A study of Mus musculus with 30 samples.

Results

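Potassium channel genes were followed in RNA sequencing counts from the soleus, a slow postural muscle of the lower hindlimb. They were taken as all genes whose symbol is Kcn, further letters and a closing number, with a raw count of at least 10 in at least 7 of the 30 libraries. Of 56980 genes in the table, 92 symbols had this form and 49 of them met the count rule, of which 46 are described. All mice were C57BL/6J, 3 to 4 months old, and carried floxed AMPKalpha1 and alpha2 genes, which encode the catalytic subunits of the energy sensor AMP-activated protein kinase. The mKO mice had lost both subunits in skeletal muscle, and the controls (Ctrl) had the floxed genes without Cre. Mice had either 4 weeks of hindlimb unloading (HU), in which the hindlimbs are kept off the ground, or 4 weeks of normal walking (ambulatory, AMB). There were 8 HU mKO mice (5 females), 7 HU Ctrl mice (3 females), 7 AMB mKO mice (2 females) and 8 AMB Ctrl mice (5 females). The labels used here do not name the promoter that drives Cre. The design asks what unloading, the loss of muscle AMPK and both together do to the transcripts.

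Potassium channels are pores that let potassium leave or enter a cell along its gradient, and in muscle they end the action potential and hold the resting potential together with chloride channels. Voltage-gated channels (the Kv families, the KCNQ and the EAG and ERG families) open when the membrane depolarises, calcium-activated channels open when calcium rises, inward rectifiers (Kir) pass current near rest, and tandem-pore channels (K2P) give a background leak. Silent Kv subunits form no channel alone and change the behaviour of other Kv pores, while auxiliary subunits change gating or trafficking. The ATP-sensitive channel, built from an inward rectifier pore and a sulfonylurea receptor, ties membrane excitability to energy state.

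Libraries held between 12.1 and 20.9 M counts. Prkaa2, the gene of the AMPKalpha2 subunit, averaged 80.1 ± 18.5 CPM (counts scaled to library size with TMM factors, SD, n = 8) in HU mKO and 254 ± 73.2 CPM (n = 7) in HU Ctrl, and 60.3 ± 26.3 CPM (n = 7) in AMB mKO against 213 ± 28.3 CPM (n = 8) in AMB Ctrl. Summed markers of fast fibres had medians of 52307 CPM in HU mKO, 59578 in HU Ctrl, 34106 in AMB mKO and 22016 in AMB Ctrl, and slow-fibre markers 18460 CPM in HU mKO, 24722 in HU Ctrl, 27083 in AMB mKO and 31770 in AMB Ctrl. The library of AMB mKO replicate 2 stood apart, with 539 CPM of slow-fibre and 11296 CPM of adipocyte markers, and 6 libraries were rich in Schwann cell transcripts. In whole muscle, fewer cells of a type and less RNA per cell cannot be told apart.

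Per kilobase of exon, soleus held most transcripts for pores of 3 kinds (plot of levels per length). Kcna7, a Kv1 pore found in skeletal muscle, averaged 29.0 CPM per kilobase over the 30 libraries. The strong inward rectifiers Kcnj2 and Kcnj12 averaged 26.5 and 16.7 CPM per kilobase, and Kcnj11, the pore of the ATP-sensitive channel, 25.5. Kcnma1, the large-conductance calcium-activated pore, averaged 15.8 CPM per kilobase and the Kv3 pore Kcnc1 11.0. Among the genes described, these 6 were followed by Kcnj8 (8.17), a second pore of ATP-sensitive channels best known from vessels, and by the Kv3 pore Kcnc4 (5.62). Ranges over libraries overlapped between neighbours in this order, and the lengths are exon unions, so neighbours should not be read as ranked. In the other families the highest per length among the genes described were Kcnq5 for KCNQ (4.46), Kcng4 for the silent subunits (1.49), Kcnk6 for K2P (1.03), Kcne4 for the auxiliary subunits (0.950), Kcnh2 for ERG (0.650) and Kcnd1 for Kv4 (0.178), all in CPM per kilobase. At the low end Kcnt1, a sodium-activated pore known from neurons, averaged 0.057 CPM per kilobase.

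**Figure D1:**
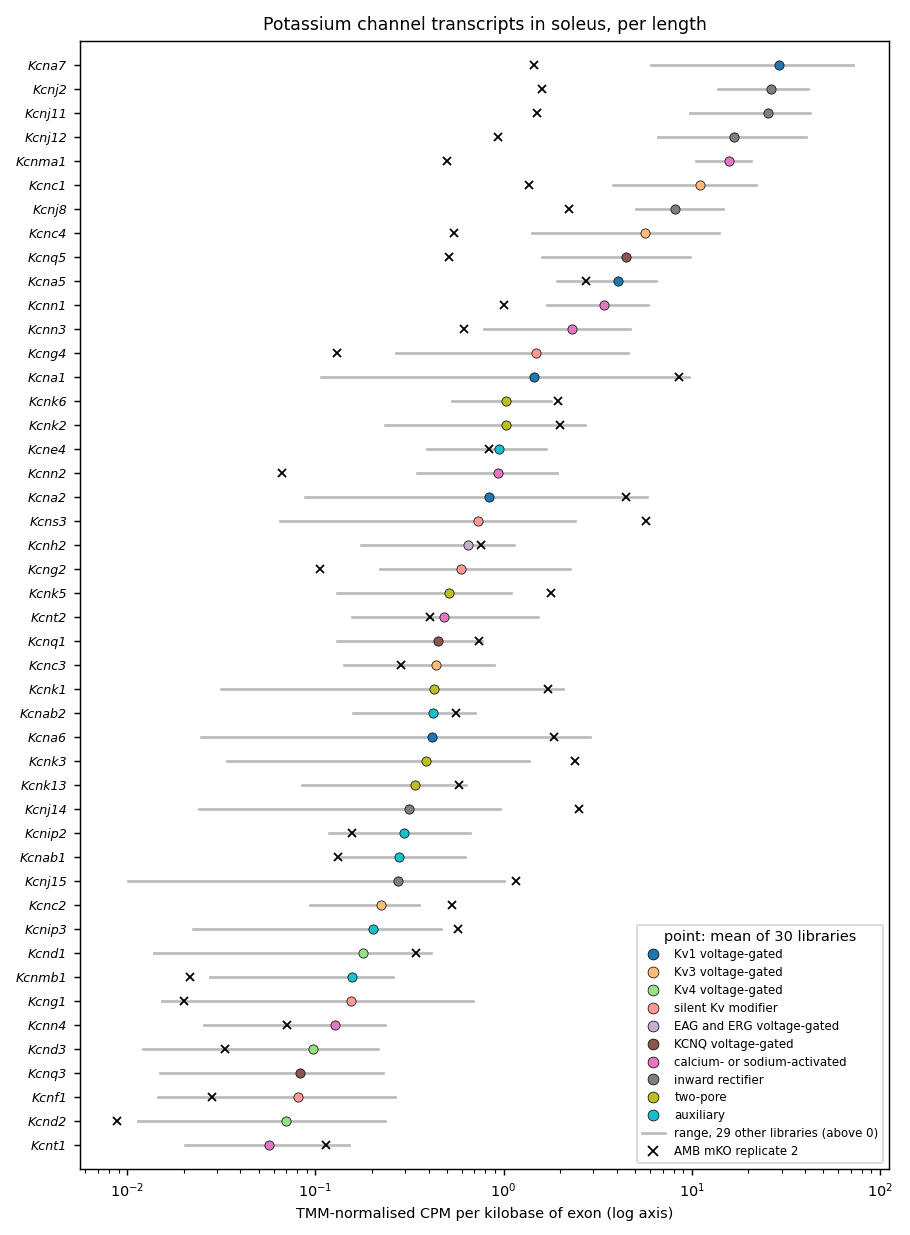
Level of each of the 46 potassium channel genes per kilobase of exon on a log axis, in TMM-normalised CPM; points are means of 30 libraries coloured by family, grey lines the range of the 29 libraries other than AMB mKO replicate 2, leaving out values of 0, and crosses that library. Kcna7, Kcnj2 and Kcnj11 lie highest at 29.0, 26.5 and 25.5 CPM per kilobase, and the crosses of the highest genes lie below the other libraries.

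The count rule set the lower edge of the group. Just inside it, Kcnd2 reached 10 counts in 7 libraries, Kcnf1 in 8 and Kcnt1 in 9. Just outside, Kcnj13, Kcnmb2 and Kcna3 reached it in 5 libraries each, with highest counts of 48, 27 and 18. Of the 43 symbols below the rule, 12 had 10 counts in at least 1 library and 3 had no count at all. For a gene with no count, an expected count of up to 3 over the 30 libraries together remains possible. Of the 46 genes described, 24 had 10 or more counts in all 30 libraries and 22 in fewer. Of these 46, 44 passed the low-count filter of the whole-table fit and were tested among 16932 genes. Kcnf1 and Kcnd2 were not.

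AMB mKO replicate 2 differed from the other 29 libraries in many of these genes. It was below all others for 17 of the 46, above all others for 8 and within their range for 21. Kcnma1 had 8.51 CPM there, against 217 to 333 CPM in the other 6 AMB mKO mice. Kcnj2 had 8.73 CPM, against 107 to 209, and Kcna7 3.17 CPM, against 68.4 to 146. These 3 were among the highest genes per length elsewhere, and the library was low in both slow-fibre and fast-fibre markers and high in adipocyte markers. Its fast-fibre sum was 3899 CPM, against 25703 to 38049 CPM in the other AMB mKO mice.

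Promoter windows were available for 33 of the 46 genes, from RefSeq on GRCm38.p6. The 250 bases before the start are shown for 2 genes that rose with unloading, Kcnn3 and Kcnc4, and for 2 that fell, Kcna7 and Kcng4, as examples of both directions. They lie at chr3:89519914-89520163 (plus strand) for Kcnn3, chr3:107458899-107459148 (minus strand) for Kcnc4, chr7:45405710-45405959 (plus strand) for Kcna7 and chr8:119635681-119635930 (minus strand) for Kcng4. Capitals mark the E-box CANNTG, the core letters bound by myogenic factors such as MyoD, searched as a palindrome on both strands.
Kcnn3: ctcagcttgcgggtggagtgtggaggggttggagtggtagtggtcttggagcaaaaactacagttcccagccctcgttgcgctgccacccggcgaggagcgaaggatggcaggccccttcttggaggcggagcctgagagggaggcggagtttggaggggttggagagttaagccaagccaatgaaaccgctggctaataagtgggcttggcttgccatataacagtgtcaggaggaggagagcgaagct
Kcnc4: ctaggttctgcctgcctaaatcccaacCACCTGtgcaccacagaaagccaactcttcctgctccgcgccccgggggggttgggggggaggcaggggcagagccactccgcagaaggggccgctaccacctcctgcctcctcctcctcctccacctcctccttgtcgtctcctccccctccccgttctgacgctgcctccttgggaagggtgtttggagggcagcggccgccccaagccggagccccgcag
Kcna7: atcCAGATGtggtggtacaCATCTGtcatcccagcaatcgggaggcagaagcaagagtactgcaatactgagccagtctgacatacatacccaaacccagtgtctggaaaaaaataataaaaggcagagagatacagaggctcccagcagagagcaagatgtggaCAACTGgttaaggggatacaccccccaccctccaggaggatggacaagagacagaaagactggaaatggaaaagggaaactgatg
Kcng4: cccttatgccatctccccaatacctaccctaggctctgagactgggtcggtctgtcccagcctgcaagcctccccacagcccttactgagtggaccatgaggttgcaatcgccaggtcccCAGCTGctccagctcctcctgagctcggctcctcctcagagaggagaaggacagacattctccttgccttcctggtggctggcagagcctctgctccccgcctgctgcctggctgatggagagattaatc
Kcna7 held 3 matches, Kcnc4 and Kcng4 held 1 each and Kcnn3 held 0. Of 32851 promoter windows of the same length, 66.2% held at least 1 match, so a match is common. The letters GGAAA on either strand, the core of NFAT sites, occurred 4 times in Kcna7 and 0 times in the other 3, against 55.6% of all windows with at least 1. No window of the 4 held AGGTCA, the half-site letters of oestrogen-related and other nuclear receptors, which 14.0% of all windows held. Bases G and C made up 58.8% of the Kcnn3 window, 68.0% of Kcnc4, 48.4% of Kcna7 and 60.4% of Kcng4, against a median of 52.4% over all windows.

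Unloading changed 9 of the 44 tested genes when averaged over both genotypes, 4 upwards and 5 downwards (edgeR quasi-likelihood test, adjusted p below 0.05 over all genes). Those that rose were the small-conductance calcium-activated pores Kcnn2 and Kcnn3, the Kv3 pore Kcnc4 and the inward rectifier Kcnj12. Those that fell were the Kv1 pore Kcna7, the silent subunits Kcng2 and Kcng4, the inward rectifier Kcnj14 and the K2P pore Kcnk2. Kcnj14 met the count rule through AMB libraries, so its selection favoured a fall. The share called was 20.5%, beside 28.5% of all 16932 genes, with 14.2% higher and 14.3% lower. The median log2 change of the 44 genes was -0.02, beside -0.01 for all genes. By family, calcium- or sodium-activated channels had 2 of 7 higher and 0 lower, silent subunits 0 higher and 2 of 4 lower, and inward rectifiers 1 higher and 1 lower of 6. Kv1 had 1 of 5 lower, Kv3 1 of 4 higher, K2P 1 of 6 lower, and Kv4, ERG, the 3 KCNQ pores described and the 6 auxiliary subunits had 0 called (plot of changes by family). Leaving out AMB mKO replicate 2 gave 12 calls among 45 tested genes, where Kcnf1, Kcnq3, Kcnn1 and Kcnc1 joined and Kcnj14 was lost. Kcnf1 met the count rule through AMB libraries only, so its fall was built into its selection and its call is no support. Leaving out the 6 Schwann-rich libraries gave 14 among 45, where Kcna1, Kcnc1, Kcne4, Kcnn1 and Kcnq3 joined and none was lost. The shares of all genes called in these fits are not given here, so the added calls cannot be read against them. Beside the channel changes, the fast-fibre list had 6 of 14 genes higher and 0 lower. The slow-fibre list had 0 higher and 4 of 12 lower. In the fast list Myh1 had a log2 change of 1.83 ± 0.38 (adjusted p = 0.000707) and Myh4 of 3.23 ± 0.81 (adjusted p = 0.00371). The fast IIa myosin Myh2, which neither list holds, went the other way (-2.56 ± 0.41, adjusted p = 3.51e-05). Myh7 of the slow list was not called (-0.50 ± 0.35, adjusted p = 0.289). The part of fibre type in the channel changes was not tested.

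**Figure D2:**
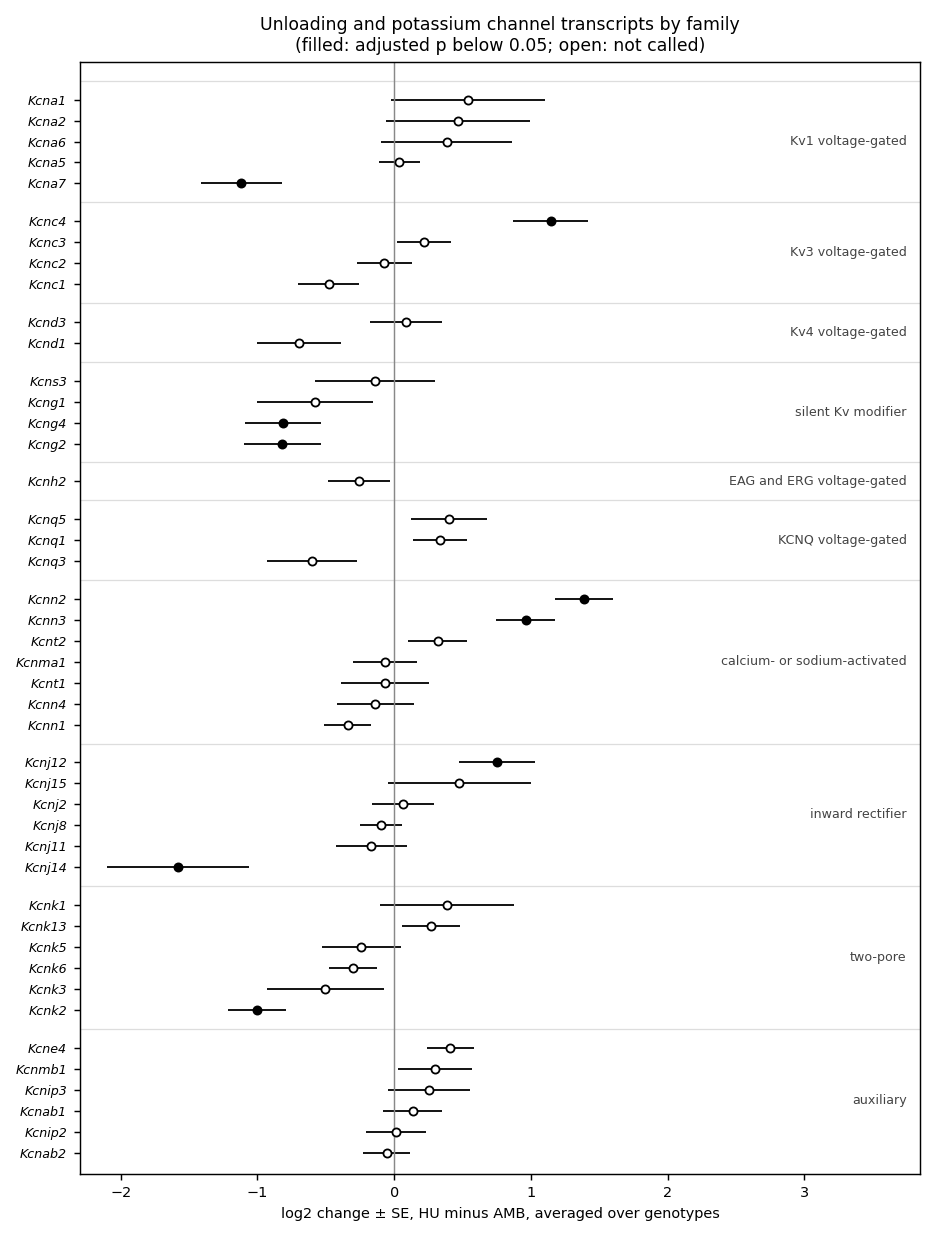
Log2 change with unloading, HU minus AMB averaged over genotypes, for the 44 tested genes grouped by family; bars are ± SE, filled points were called and open points were not. Kcnn2 lies farthest to the right at 1.39 and Kcnj14 farthest to the left at -1.58. The 4 silent subunits and the 1 ERG gene lie below 0, and each other family holds points on both sides of 0.

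Separately by genotype, 2 genes were called in mKO mice and 4 in Ctrl mice. In mKO mice Kcnn2 rose and Kcnk2 fell, 4.55% of the 44 genes, against 10.1% of all genes (5.3% higher and 4.75% lower). Among controls both were called together with Kcnn3, which rose, and Kcng4, which fell with an adjusted p of 0.0499, making 9.09% against 11.1% of all genes (5.37% higher and 5.74% lower). The direction of the unloading change was shared between mKO and Ctrl mice by 30 of the 44 genes, or 68.2%, beside 75.4% of all genes tested, and these 2 comparisons share no mice. The interaction of genotype and unloading was called for 0 genes in edgeR, in DESeq2 and in limma, with 0 of 44 at an unadjusted p below 0.05 in edgeR, where 0% of all genes were called. The sets of calls in mKO and Ctrl mice are therefore not shown to differ. For all 9 genes called on average, the direction held within each of the 3 letters that end the sample titles. The letters are not explained. Kcng2 came nearest to an exception, with ratios of HU to AMB means from 0.407 to 0.900.

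Among calcium-activated pores, the small-conductance channels Kcnn2 and Kcnn3 carry the afterhyperpolarisation that follows an action potential, and Kcnn3 is known from rodent muscle before and after loss of its nerve. Kcnn2 had a lowest, median and highest level of 3.796, 9.65 and 14.3 CPM in HU mKO and 7.89, 9.80 and 14.3 CPM in HU Ctrl. In AMB mKO these were 0.498, 4.33 and 6.58 CPM and in AMB Ctrl 2.58, 3.73 and 5.30 CPM. All 7 HU Ctrl mice were above all 8 AMB Ctrl mice, and it was the only member whose groups did not overlap, where 3.56% of all genes did not. In mKO mice the ranges overlapped, with 7 of 8 HU mice above the AMB median. The fitted change was 1.40 ± 0.29 in Ctrl (log2 ± SE, adjusted p = 0.00242), 1.38 ± 0.31 in mKO (adjusted p = 0.00566) and 1.39 ± 0.21 averaged, 2.62-fold higher (adjusted p = 1.91e-05).

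Kcnn3 had 18.5, 36.02 and 44.3 CPM as lowest, median and highest in HU mKO and 9.75, 32.2 and 49.1 CPM in HU Ctrl. The AMB mKO mice had 6.47, 17.8 and 27.7 CPM and the AMB Ctrl mice 8.19, 14.5 and 19.5 CPM. Groups overlapped, with 13 of 15 HU mice above the AMB median. The averaged change was 0.96 ± 0.22, 1.95-fold higher (adjusted p = 0.00154). In Ctrl it was 1.01 ± 0.30 (adjusted p = 0.0307) and in mKO 0.92 ± 0.32 (adjusted p = 0.0642). Kcnma1, the highest member of its family per length, averaged 271 ± 57.6 CPM in HU mKO, 246 ± 50.9 in HU Ctrl, 258 ± 117 in AMB mKO and 293 ± 15.8 in AMB Ctrl. Its averaged change of -0.06 ± 0.23 was not called. Kcnn1, a further small-conductance pore, had an averaged change of -0.34 ± 0.17 (adjusted p = 0.141), which was -0.43 ± 0.14 and called without AMB mKO replicate 2 (adjusted p = 0.0151).

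KCNQ pores are slow voltage-gated channels that steady the membrane near rest. Kcnq5, the highest per length of those described and known from neurons and muscle, averaged 42.3 ± 24.8 CPM in HU mKO, 35.7 ± 15.0 in HU Ctrl, 28.3 ± 12.9 in AMB mKO and 30.1 ± 10.02 in AMB Ctrl. Its averaged change of 0.40 ± 0.28 was not called (adjusted p = 0.290), and 10 of 15 HU mice lay above the AMB median. Kcnq3 averaged 0.956 ± 0.796 CPM in HU mKO, 0.917 ± 0.362 in HU Ctrl, 1.18 ± 0.57 in AMB mKO and 1.80 ± 0.66 in AMB Ctrl, with an averaged change of -0.60 ± 0.33 (adjusted p = 0.170). Without AMB mKO replicate 2, which held 0 CPM of Kcnq3, the change was -0.71 ± 0.26 and was called (adjusted p = 0.0351).

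Voltage-gated pores of the Kv1 and Kv3 families repolarise the membrane after a spike. Kcna7, one of the most abundant members per length, had 19.9, 39.9 and 62.2 CPM as lowest, median and highest in HU mKO and 13.3, 40.7 and 63.8 CPM in HU Ctrl. The AMB mKO mice had 3.17, 94.9 and 146 CPM, the lowest being replicate 2, and the AMB Ctrl mice 53.0, 74.9 and 156 CPM. All 15 HU mice lay below the AMB median. It fell by 1.12 ± 0.30 averaged, 2.17-fold lower (adjusted p = 0.00558), and by 1.25 ± 0.21 (adjusted p = 4.08e-05) without that library. Its change was -1.25 ± 0.42 in Ctrl (adjusted p = 0.0520) and -0.99 ± 0.43 in mKO (adjusted p = 0.138), neither called. Without that library both were called, at -1.22 ± 0.29 in Ctrl (adjusted p = 0.00442) and -1.28 ± 0.31 in mKO (adjusted p = 0.00633). Kcnc4, a fast-inactivating Kv3 pore, moved the other way, with 15.99, 26.4 and 51.3 CPM in HU mKO and 5.18, 32.1 and 42.5 CPM in HU Ctrl, against 1.99, 13.5 and 20.2 CPM in AMB mKO and 6.01, 11.4 and 18.6 CPM in AMB Ctrl. It rose by 1.14 ± 0.28 averaged, 2.21-fold higher (adjusted p = 0.00262), with 13 of 15 HU mice above the AMB median. HU Ctrl mice spanned the whole AMB Ctrl range. Kcnc1, the other abundant Kv3 pore, averaged 85.6 ± 28.3 CPM in HU mKO, 85.4 ± 33.0 in HU Ctrl, 123 ± 54.2 in AMB mKO and 123 ± 40.7 in AMB Ctrl, and was not called. Without AMB mKO replicate 2 its averaged log2 change was -0.58 ± 0.16 and was called (adjusted p = 0.00593).

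The silent subunits, which pair with other Kv pores, had log2 changes from -0.82 to -0.14 for the 4 tested. Kcng4 had 1.82, 3.18 and 5.66 CPM as lowest, median and highest in HU mKO and 1.46, 3.22 and 6.11 CPM in HU Ctrl. In AMB mKO it had 0.498, 10.6 and 16.7 CPM and in AMB Ctrl 1.02, 4.34 and 17.5 CPM. Ambulatory mice were thus widely spread, and their higher values were those of males. It fell by 0.81 ± 0.28 averaged (adjusted p = 0.0272). Kcng2 had 0.696, 1.23 and 3.14 CPM in HU mKO and 0.661, 1.07 and 1.58 CPM in HU Ctrl, against 0.317, 1.98 and 6.71 CPM in AMB mKO and 0.686, 2.21 and 3.48 CPM in AMB Ctrl. It fell by 0.82 ± 0.28 averaged (adjusted p = 0.0289), with 14 of 15 HU mice below the AMB median. The gene shares 9.10% of its exon length with D330025C20Rik on the opposite strand, and the strand setting of the counting is not given in the sources used here. Kcnf1, another silent subunit, was too low for the main fit. It had 0 to 0.342 CPM in HU mKO, 0 to 0.329 in HU Ctrl, 0.136 to 1.26 in AMB mKO and 0.184 to 1.12 in AMB Ctrl. Its 8 libraries with 10 counts were all AMB, so it entered the group through one side and a difference was built into its selection. Without the low-count filter its averaged change was -2.11 ± 0.37 (adjusted p = 0.000117), which for that reason cannot serve as a test of a fall.

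Inward rectifiers and K2P pores shape the resting potential. Kcnj12 had 31.9, 51.7 and 112 CPM as lowest, median and highest in HU mKO and 22.7, 56.4 and 77.8 CPM in HU Ctrl, against 2.58, 39.6 and 46.3 CPM in AMB mKO and 18.2, 30.2 and 58.5 CPM in AMB Ctrl. It rose by 0.75 ± 0.28 averaged (adjusted p = 0.0430), with 11 of 15 HU mice above the AMB median. Its call ended without the low-count filter (adjusted p = 0.0962). Kcnj2 averaged 150 ± 47.8 CPM in HU mKO, 143 ± 31.9 in HU Ctrl, 143 ± 66.5 in AMB mKO and 141 ± 24.9 in AMB Ctrl and was not called. Kcnj11 averaged 94.6 ± 34.6 CPM in HU mKO, 81.9 ± 35.9 in HU Ctrl, 99.5 ± 48.2 in AMB mKO and 98.6 ± 15.0 in AMB Ctrl, also with no call. Kcnj14 had 0, 0.206 and 2.60 CPM in HU mKO and 0, 0.151 and 0.528 CPM in HU Ctrl, against 0.447, 1.05 and 6.88 CPM in AMB mKO and 0.343, 0.570 and 1.75 CPM in AMB Ctrl. Its averaged change of -1.58 ± 0.52 (adjusted p = 0.0222) became -0.98 (adjusted p = 0.139) without AMB mKO replicate 2, which held the highest value. Kcnj14 reached 10 counts in 4 AMB mKO, 5 AMB Ctrl, 2 HU mKO and 0 HU Ctrl libraries. It thus met the count rule through AMB mice, and lower values in HU mice were favoured by its selection.

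Kcnk2, a K2P pore opened by stretch and lipids, had 1.157, 3.04 and 5.13 CPM as lowest, median and highest in HU mKO and 2.68, 3.22 and 5.09 CPM in HU Ctrl. In AMB mKO these were 2.95, 5.20 and 9.86 CPM and in AMB Ctrl 2.49, 8.04 and 13.4 CPM. All 15 HU mice lay below the AMB median. It fell by 1.00 ± 0.21 averaged, 2.00-fold lower (adjusted p = 0.000826), by 0.95 ± 0.31 in Ctrl (adjusted p = 0.0432) and by 1.05 ± 0.31 in mKO (adjusted p = 0.0303). The mKO call ended without AMB mKO replicate 2 (-0.88, adjusted p = 0.0770). Kcnk2 shares 12.2% of its exon length with A430027H14Rik on the opposite strand. Kcnk6, the highest K2P member per length, averaged 3.43 ± 0.79 CPM in HU mKO, 4.34 ± 1.74 in HU Ctrl, 4.81 ± 2.25 in AMB mKO and 4.67 ± 0.68 in AMB Ctrl and was not called.

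**Figure D3:**
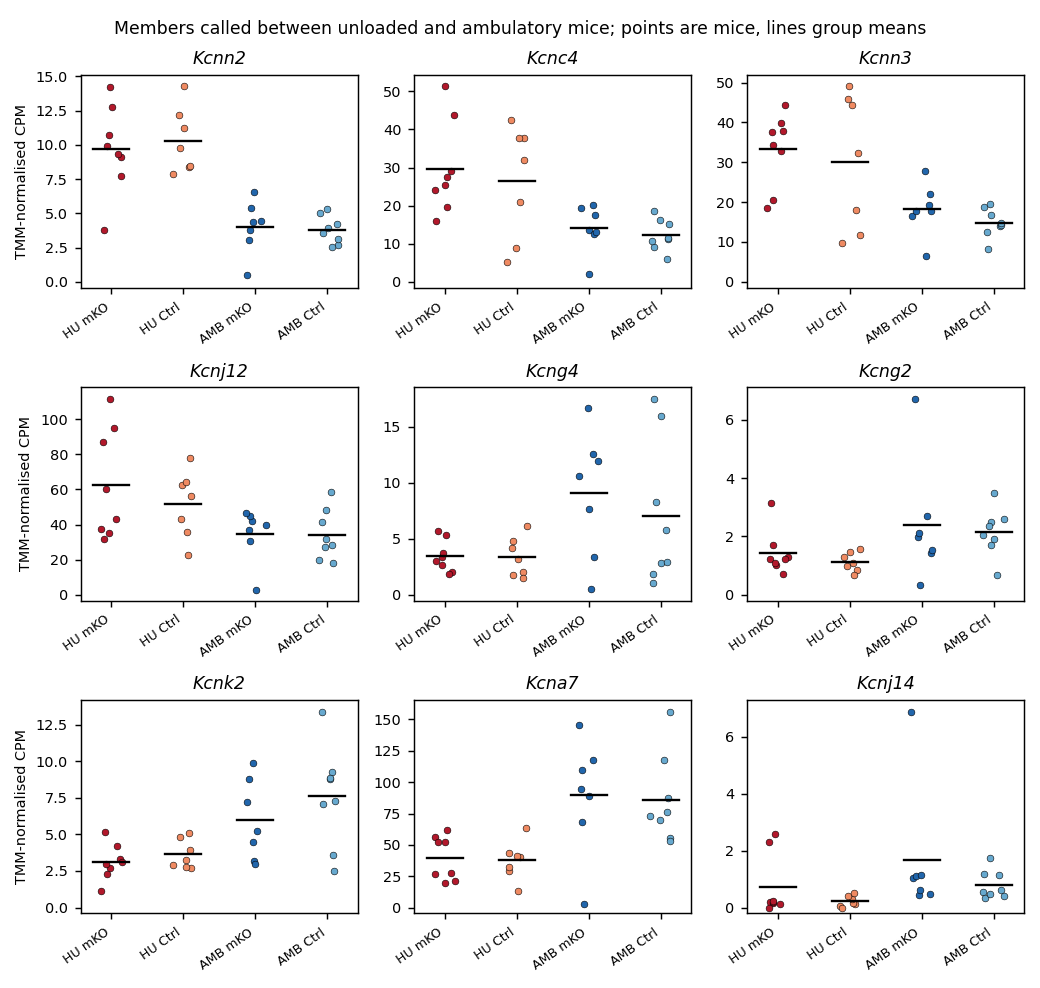
TMM-normalised CPM of the 9 genes called between unloaded and ambulatory mice, 1 panel per gene with its own linear axis; points are mice and black lines group means in HU mKO, HU Ctrl, AMB mKO and AMB Ctrl. For Kcnn2 the HU Ctrl mice sit between 7.89 and 14.3 CPM, all above the AMB Ctrl mice, and for Kcna7 the 15 HU mice lie at or below 63.8 CPM.

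The remaining family leads were not called with unloading. The ERG pore Kcnh2, which repolarises the heart, averaged 3.18 ± 1.67 CPM in HU mKO, 2.81 ± 1.40 in HU Ctrl, 3.68 ± 0.80 in AMB mKO and 2.95 ± 1.04 in AMB Ctrl. The Kv4 pore Kcnd1 averaged 0.669 ± 0.415 CPM in HU mKO, 0.767 ± 0.294 in HU Ctrl, 1.32 ± 0.67 in AMB mKO and 1.04 ± 0.53 in AMB Ctrl, and its averaged log2 change was -0.70 ± 0.31 (adjusted p = 0.0918). Kcne4, an auxiliary subunit that damps several Kv pores, averaged 2.94 ± 1.10 CPM in HU mKO, 2.81 ± 0.77 in HU Ctrl, 1.98 ± 0.40 in AMB mKO and 2.33 ± 0.73 in AMB Ctrl, with a log2 change of 0.41 ± 0.17 (adjusted p = 0.0753). Kcne4 and Kcnd1 were the nearest to a call among the genes described outside the 9.

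Loss of muscle AMPK changed 0 of the 44 genes in unloaded and 0 in ambulatory mice in edgeR, where 0.0177% of all genes were called in each comparison. DESeq2 and limma also called 0. Before adjustment, 0 genes had a p below 0.05 in unloaded mice and 2 had one in ambulatory mice, the silent subunit Kcns3 and the Kv1 auxiliary subunit Kcnab1. Kcns3 averaged 3.93 ± 6.39 CPM in AMB mKO and 1.35 ± 0.82 CPM in AMB Ctrl, with a log2 change of 1.70 ± 0.62 (adjusted p = 0.565) that became 0.66 ± 0.64 without replicate 2, whose 18.01 CPM was the highest of all libraries. Kcnab1 averaged 1.77 ± 0.40 CPM in AMB mKO and 2.82 ± 1.21 CPM in AMB Ctrl (-0.77 ± 0.33, adjusted p = 0.616). Without that library these counts were 1 in unloaded and 0 in ambulatory mice. For Kcnj11, the pore of the energy-gated channel, the change was 0.21 ± 0.37 in unloaded and 0.01 ± 0.38 in ambulatory mice. For Kcnma1 it was 0.20 ± 0.33 in unloaded and -0.32 ± 0.35 in ambulatory mice, where it became -0.02 ± 0.14 without replicate 2. Kcnd2, a Kv4 pore too low for the main fit, averaged 0.250 ± 0.139 CPM in HU mKO against 0.656 ± 0.298 in HU Ctrl, and 0.139 ± 0.108 in AMB mKO against 0.404 ± 0.268 in AMB Ctrl. Its 7 libraries with 10 counts were all Ctrl, so it entered the group through the controls and lower values in mKO were built into its selection. Without the low-count filter its changes were -1.40 ± 0.47 in unloaded (adjusted p = 0.998) and -1.50 ± 0.52 in ambulatory mice (adjusted p = 0.656), which fail the correction.

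Sex separated 1 of the 44 genes, Kcng4, where 0.213% of all genes were called. Ambulatory females had 0.498, 2.85 and 5.74 CPM as lowest, median and highest (n = 7) and ambulatory males 7.66, 12.3 and 17.5 CPM (n = 8). Unloaded females had 1.46, 2.06 and 5.66 CPM (n = 8) and unloaded males 3.22, 4.19 and 6.11 CPM (n = 7). Every ambulatory female lay below every ambulatory male, while unloaded mice overlapped (plot of Kcng4 by sex). The share of all genes that separate the sexes in ambulatory mice is not given here. The fitted difference, female minus male, was -1.66 ± 0.29, 3.16-fold lower (adjusted p = 0.00344). Without the 6 libraries rich in Schwann cell transcripts it was -1.29 (adjusted p = 0.102). In a model with a sex by unloading term, the unloading change of Kcng4 was 0.01 ± 0.36 in females (adjusted p = 0.988) and -1.53 ± 0.34 in males (adjusted p = 0.00266). Without AMB mKO replicate 2, the lowest ambulatory female, the change in females was -0.22 ± 0.32 (adjusted p = 0.735). The difference between these changes, 1.55 ± 0.50, had an unadjusted p of 0.0046 and an adjusted p of 0.904 in edgeR and fails the correction. Kcnh2 changed by 0.43 ± 0.27 in females (adjusted p = 0.366) and by -0.95 ± 0.27 in males (adjusted p = 0.0156), and its difference of 1.39 ± 0.39 had a smaller unadjusted p of 0.00144 and the same adjusted p of 0.904. Kcne4 changed by 0.07 ± 0.24 in females (adjusted p = 0.902) and by 0.75 ± 0.23 in males (adjusted p = 0.0259), with an adjusted p of 0.904 for the difference. Kcnj12 changed by 1.29 ± 0.39 in females (adjusted p = 0.0482) and by 0.23 ± 0.37 in males (adjusted p = 0.708). Kcna7 was called in males (-1.46 ± 0.42, adjusted p = 0.0168) and not in females (-0.76 ± 0.42, adjusted p = 0.309). Without AMB mKO replicate 2, Kcna7 was called in both, at -1.43 ± 0.29 in males (adjusted p = 0.000989) and -1.04 ± 0.30 in females (adjusted p = 0.0308). With all 30 libraries, this model called 4 genes higher and 1 lower in females, and 2 higher and 3 lower in males. Kcnn2 rose and was called in both sexes (adjusted p = 0.00353 in females and 0.00439 in males). Kcnn3, Kcnc4 and Kcnk2 were called in females and not in males. The difference between the sexes was called for 0 of the 44 genes. Shares of all genes called in this model are not given here, so these counts cannot be read against them.

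**Figure D4:**
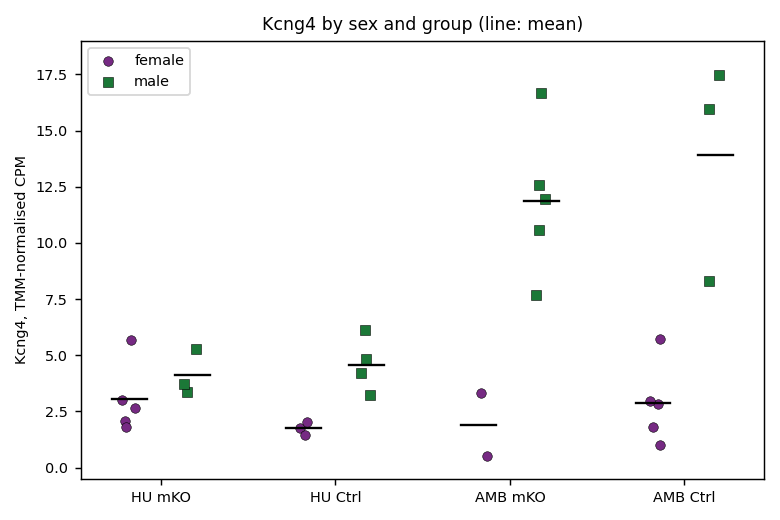
Kcng4 in TMM-normalised CPM by group and sex; circles are females, squares are males and lines are means. The 8 ambulatory males lie between 7.66 and 17.5 CPM, above all 7 ambulatory females, and the unloaded males lie between 3.22 and 6.11 CPM.

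The Kv1 pores Kcna1, Kcna2 and Kcna6, which are known from axons and their Schwann cells, were high in libraries rich in Schwann cell transcripts (plot of Kv1 genes against Schwann cell markers). In the 6 libraries with 463 to 1847 CPM of summed Schwann and myelin markers, Kcna1 ran from 7.61 to 46.0 CPM, Kcna2 from 9.48 to 68.6 and Kcna6 from 2.12 to 17.2. Among the other 24 libraries, with 47.4 to 206 CPM of these markers, Kcna1 ran from 0.511 to 8.29 CPM, Kcna2 from 1.05 to 10.2 and Kcna6 from 0.147 to 1.76. Kcna6 did not overlap between the 2 sets, nor did the K2P pore Kcnk1, with 1.37 to 4.65 CPM in the 6 libraries and 0 to 0.986 CPM in the others. Of all 16932 genes, 0.532% did not overlap. All 6 neuron markers averaged below 1 CPM. The 6 libraries are HU mKO replicates 2 and 3, HU Ctrl replicate 7, AMB mKO replicate 2 and AMB Ctrl replicates 1 and 3, and 5 of the 6 mice are female. HU mKO replicates 2 and 3 and AMB mKO replicate 2 are also the adipocyte-rich libraries, with 2936, 3167 and 11296 CPM of adipocyte markers. Schwann cell and fat content cannot be told apart in them. AMB mKO replicate 3, with 2442 CPM of adipocyte markers, was not counted as adipocyte-rich. Female minus male log2 differences were 1.67 ± 0.61 for Kcna1, 1.82 ± 0.55 for Kcna2 and 1.75 ± 0.50 for Kcna6, none called in edgeR (adjusted p from 0.168 to 0.255). DESeq2 called Kcna6. Leaving out AMB mKO replicate 2, a female, gave differences of 0.81 ± 0.61 for Kcna1, 1.19 ± 0.58 for Kcna2 and 1.24 ± 0.52 for Kcna6 (adjusted p from 0.780 to 0.954). Kcna6 shares 39.6% of its exon length with Gm26673 on the opposite strand.

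**Figure D5:**
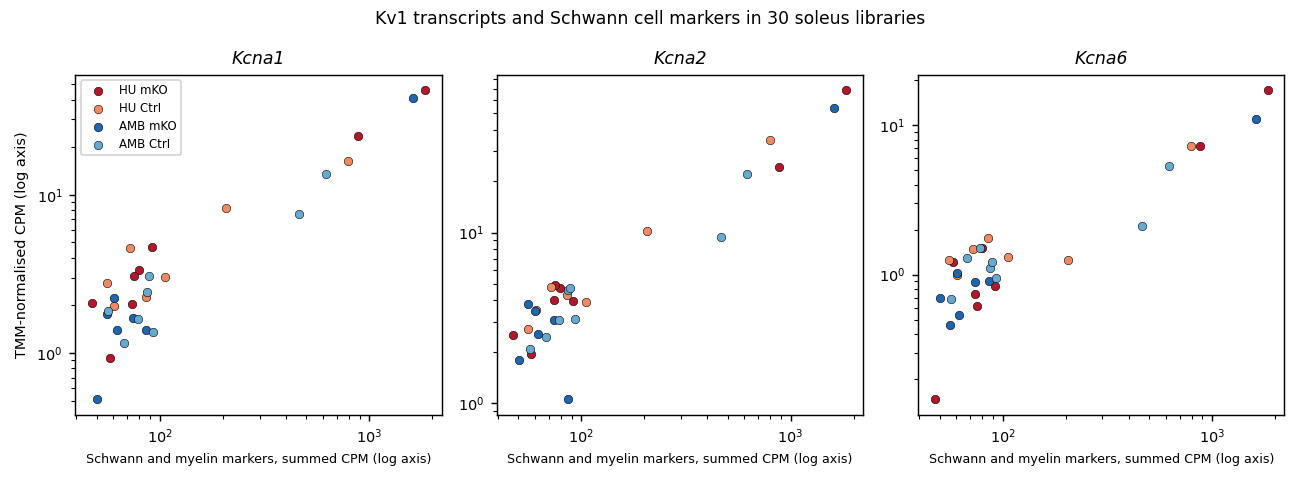
TMM-normalised CPM of Kcna1, Kcna2 and Kcna6 against the summed CPM of 10 Schwann and myelin markers in 30 libraries, both axes logarithmic, coloured by group. The 6 libraries from 463 to 1847 CPM of markers, which come from all 4 groups, hold the highest values of each gene, apart from a small overlap for Kcna1 and Kcna2.

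Genes that work beside potassium channels also changed with unloading, averaged over genotypes and read against 14.2% higher and 14.3% lower among all genes. Of 11 tested sodium-potassium pump genes described, 2 rose and 3 fell. Atp1b1, a beta subunit, averaged 240.1 ± 62.3 CPM in HU and 402 ± 117 CPM in AMB mice (-0.71 ± 0.25, adjusted p = 0.0304), while the regulator Fxyd7 rose by 0.93 ± 0.16 (adjusted p = 0.000101). Of 11 partners of potassium channels under other names, 5 rose and 3 fell, among them the ubiquitin ligase Nedd4l (0.82 ± 0.11, adjusted p = 3.27e-06) and the large-conductance channel partner Lrrc52 (-2.06 ± 0.40, adjusted p = 0.000365). Of 5 tested genes listed as potassium chloride cotransporters, 2 rose and 2 fell. Slc12a2, whose product also carries sodium, was at 0.99 ± 0.13 (adjusted p = 3.13e-06) and Slc12a4 at -0.74 ± 0.12 (adjusted p = 3.53e-05). Neither sulfonylurea receptor of the ATP-sensitive channel was called. Chloride channels had 4 of 12 higher and 1 lower, including Clcn1, the main resting chloride conductance of muscle (0.83 ± 0.23, adjusted p = 0.00691). Calcium channels had 2 of 18 higher and 0 lower, Cacng1 (0.93 ± 0.21, adjusted p = 0.00141) and Cacna1s (0.83 ± 0.31, adjusted p = 0.0422), which form the voltage sensor of contraction. Sodium channels had 2 of 10 higher and 0 lower, and other cation channels 0 higher and 1 of 8 lower, the pacemaker channel Hcn2 (-0.82 ± 0.26, adjusted p = 0.0164). Genes known to respond to denervation had 5 of 12 higher and 0 lower, among them the histone deacetylase Hdac4 (1.26 ± 0.14, adjusted p = 4.64e-07) and the adult acetylcholine receptor subunit Chrne (2.21 ± 0.65, adjusted p = 0.0113). None of the genes of these lists was called between mKO and Ctrl mice, where 0.0177% of all genes were.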

How the data were processed

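Directional libraries of soleus RNA from 30 mice were run on an Illumina NovaSeq, per the labels' protocols. The authors deposited raw counts of reads for each Ensembl gene, in 1 column a mouse. The submitters' processing notes name cutadapt 1.16, STAR 2.7.9a, featureCounts 1.6.3, DESeq2 1.34.0 and the builds GRCm39 and mm39. Annotation release and strand setting: not given in the sources used here. Protocol texts on other material were not used. No 2 libraries held identical counts. Only the sample titles speak of separate animals, so p-values measure the spread between these samples.

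TMM normalisation and all main tests used edgeR 4.0.16 (R 4.3.3). Of 56980 genes, 16932 passed filterByExpr by group. The quasi-likelihood fit had group and sex terms over all 30 libraries, and 7 comparisons were read from it: mKO against Ctrl in HU and in AMB, HU against AMB in mKO, in Ctrl and averaged, their interaction, and female against male. Calls needed p below 0.05 after Benjamini-Hochberg adjustment across every tested gene. Errors beside log2 changes are SE and beside CPM SD. Alternatives were DESeq2 1.42.0, limma 3.58.1 and others named under the processing. Exon lengths and overlaps came from GENCODE M21. Full values are given for called members and for the highest member per length of each family, and for up to 4 genes of each list by p. Members and lists were chosen with earlier results of these data known. Of the 49 genes that met the rule, 3 are not reported here, nor is 1 gene of the pump list, and counts leave them out.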

Additional observations from a re-analysis of the deposited data

Results flagged for a closer look

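A gap test at the 95% level flags about 1 in 20 sets of independent, normally distributed values. The sets tested here share libraries, so that rate is no exact baseline. By this test, single libraries lay far from the rest of their group in 7 of 68 sets of values (17 members in 4 groups). AMB mKO replicate 2 accounts for 4 of them, with 1.99 CPM of Kcnc4 against 12.6 to 20.2 CPM in the other 6 mice, 2.58 CPM of Kcnj12 against 30.6 to 46.3, 8.51 CPM of Kcnma1 against 217 to 333, and 6.88 CPM of Kcnj14 against 0.447 to 1.15. Kcng2 had 6.71 CPM in AMB mKO replicate 4, against 0.317 to 2.69 in its group, and 3.14 CPM in HU mKO replicate 7, against 0.696 to 1.71. Kcnq5 had 51.9 CPM in AMB Ctrl replicate 6, against 19.8 to 34.04 in its group.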

How the results depend on the processing

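With unloading averaged over genotypes, 9 genes were called and the count ran from 7 to 14 over the alternatives. Shares over all genes are given for the main fit only. Shifts in the counts below are therefore not read as particular to potassium channel genes. Without AMB mKO replicate 2 it was 12, without the 3 adipocyte-rich libraries 14 and without the 6 Schwann-rich libraries 14. AMB mKO replicate 2 is 1 of the 3 adipocyte-rich libraries, and all 3 are among the 6 Schwann-rich ones. These alternatives are therefore not independent of each other. Kcnf1, which the main filter removed and which entered through AMB libraries, is 1 of the calls without AMB mKO replicate 2, without the adipocyte-rich libraries and without the low-count filter, averaged and in Ctrl mice. Counts in Ctrl mice moved from 4 to 8 with limma, to 2 without the low-count filter, to 7 when only the compared groups were fitted, to 7 without AMB mKO replicate 2 and to 9 without the 3 adipocyte-rich libraries; over the settings that leave out 1 library they ran from 4 to 7. Counts in mKO mice moved from 2 to 4 with DESeq2, with limma and without the 6 Schwann-rich libraries, to 5 with the title letter as covariate and without the 3 adipocyte-rich libraries, and to 1 when only the compared groups were fitted. Without AMB mKO replicate 2 the mKO count was 3, namely Kcnn2, Kcna7 and Kcnf1, with Kcnk2 lost; Kcnf1 is also 1 of the 5 without the adipocyte-rich libraries. For sex, 1 gene became 2 with DESeq2 and 0 without the 6 Schwann-rich libraries. Both genotype comparisons and the interaction stayed at 0 under all alternatives run. The cause of these shifts was not tested. Kcng4 in Ctrl mice lost its call in 5 alternatives, with adjusted p up to 0.224, and Kcng4 averaged and Kcnj14 averaged lost theirs without the low-count filter (adjusted p = 0.0588 and 0.0543). Kcnn3 in Ctrl mice lost its call without the 6 Schwann-rich libraries (adjusted p = 0.0853) and without the low-count filter (adjusted p = 0.0714), and Kcnk2 in Ctrl mice lost it without that filter (adjusted p = 0.0700) and with the title letter (adjusted p = 0.0509). In mKO mice Kcnk2 lost its call in 5 alternatives, with adjusted p up to 0.112, and Kcnn2 when only the compared groups were fitted (adjusted p = 0.0656). Signs turned in females under the sex by unloading model for Kcng4 (0.015, but -0.22 without AMB mKO replicate 2) and, without AMB mKO replicate 2, for Kcnj14 (0.16), on the log2 scale. The 3 alternatives that use Schwann-rich libraries or a sex by unloading term were chosen after seeing the data. Adipocyte-rich libraries were likewise picked by their marker levels in these data. For leaving out AMB mKO replicate 2 or AMB Ctrl replicate 1, no rule fixed beforehand is given. No paired analysis was possible because the labels give the groups no shared replicate numbers. Depth limits Kcnf1, Kcnd2, Kcnt1 and Kcnj14, which reached 10 counts in 11 or fewer libraries.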
